A study of Mus musculus with 12 samples.

Results

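The 10 genes described here encode subunits of the Polycomb repressive complexes: Ezh1, Ezh2, Eed, Suz12 and Jarid2 of Polycomb repressive complex 2 (PRC2), and Bmi1, Ring1, Rnf2, Cbx2 and Cbx7 of Polycomb repressive complex 1 (PRC1). They were taken by name, not by their level, and all 10 were found among the 56748 genes counted in each library. Polycomb complexes keep genes silent by marking the histones around them. PRC2 methylates lysine 27 of histone H3, and PRC1 attaches ubiquitin to histone H2A and compacts chromatin that carries the PRC2 mark. In the bone marrow both complexes are known for their role in the self-renewal and lineage choice of haematopoietic stem cells, and Bmi1 is the best known example.

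RNA was measured by bulk RNA-seq in 12 libraries of Lin-Sca+Kit+ (LSK) bone marrow cells, a sorted fraction that holds haematopoietic stem cells and multipotent progenitors. The sorted cells came from SCLtTA/BCR-ABL double transgenic (DTG) donors. In these, regulatory DNA of SCL drives a transactivator that tetracycline (TET) switches off. BCR-ABL is thus expressed in SCL-active cells once TET is withdrawn. CD45.2 donor marrow was given to CD45.1 B6.SJL recipients aged 8 to 12 weeks that had received 2 radiation doses of 4.25 Gy, and every recipient was given TET for the first 2 weeks. The 6 CTRL libraries came from mice kept on TET, and the 6 CML 2wk libraries from mice without TET for 2 further weeks, when the transgene is expressed. All donor cells carry both transgenes, and per the study's methods they came from 1 frozen pool of marrow from mice of both sexes. Comparing the 2 groups asks how expression of BCR::ABL1 goes with RNA levels in LSK cells. Exposure to TET differed between the same groups, so its effect and that of BCR::ABL1 cannot be told apart. The human fusion transcript itself has no entry of its own in these mouse gene counts.

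Libraries held 22804754 to 41832868 counts in CTRL and 16150817 to 25070105 in CML 2wk. The sorting markers were present in every library: Kit measured 681 to 800.0 counts scaled to library size (CPM) in CTRL and 323 to 522 in CML 2wk, and Ly6a, which encodes Sca-1, measured 27.2 to 38.3 and 31.4 to 74.1 CPM. The labels call the CTRL animals male and the CML 2wk animals female, but Xist, which is expressed from the inactive X chromosome of females, measured 3794 to 4425 CPM in CTRL and 2183 to 3502 in CML 2wk. The summed CPM of the Y-linked genes Ddx3y, Eif2s3y and Kdm5d was at most 1.84 in CTRL. In CML 2wk its median was 0.0188, and it reached 16.7 in 1 library, replicate 2. These values are at odds with the male label of CTRL and with the pool from both sexes that the methods describe. In CML 2wk, 2 libraries stood apart by a marker list that, like the other lists, was chosen with earlier results of these data known. The summed CPM of 16 stromal marker genes was 5754 in replicate 2 and 856 in replicate 4, against a median of 152 in CML 2wk and 189 to 226 in CTRL. Values without both libraries are given for each of the 10 genes and where a list's counts moved. The library numbers of replicates 1 to 5 form a separate run in each group, and only replicate 6 of both groups falls in a shared run, so for the other libraries such a run and the group cannot be told apart. Spread among replicates was also wider in CML 2wk, where the biological coefficient of variation over all genes was 32.6%, against 10.9% in CTRL.

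The region before each gene's start is shown for 5 of these genes, chosen because they include both H3K27 methyltransferases, the member that rose, the PRC2 scaffold and Bmi1. RefSeq promoter windows (250 bases before to 50 after the start, GRCm38.p6) were at hand for 9 of the 10 genes; Cbx2 was the gene with no entry. Capitals mark words searched for on both strands: the E2F words TTTGGCGC, TTTCCCGC, TTTCGCGC and TTTGCCGC, the E-box CACGTG, the CCAAT box CCAAT and the core of the cyclic AMP response element TGACGT. Ezh2 lies at chr6:47594981-47595280, Suz12 at chr11:79992856-79993155, Ezh1 at chr11:101226414-101226713, Eed at chr7:89980927-89981226 and Bmi1 at chr2:18676768-18677067, with Suz12 and Bmi1 on the plus strand and the others on the minus strand.
Ezh2: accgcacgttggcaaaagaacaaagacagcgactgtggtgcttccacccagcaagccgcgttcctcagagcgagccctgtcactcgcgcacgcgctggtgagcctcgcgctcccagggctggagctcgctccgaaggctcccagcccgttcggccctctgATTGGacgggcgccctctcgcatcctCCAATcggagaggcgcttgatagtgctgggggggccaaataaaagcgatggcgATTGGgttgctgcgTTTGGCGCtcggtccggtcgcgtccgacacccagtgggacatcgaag
Suz12: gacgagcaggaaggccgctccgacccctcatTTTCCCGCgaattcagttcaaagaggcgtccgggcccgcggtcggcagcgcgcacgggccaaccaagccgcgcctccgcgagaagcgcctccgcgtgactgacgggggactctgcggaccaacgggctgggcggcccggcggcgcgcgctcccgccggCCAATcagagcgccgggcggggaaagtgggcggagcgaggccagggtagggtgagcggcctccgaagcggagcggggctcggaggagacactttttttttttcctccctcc
Ezh1: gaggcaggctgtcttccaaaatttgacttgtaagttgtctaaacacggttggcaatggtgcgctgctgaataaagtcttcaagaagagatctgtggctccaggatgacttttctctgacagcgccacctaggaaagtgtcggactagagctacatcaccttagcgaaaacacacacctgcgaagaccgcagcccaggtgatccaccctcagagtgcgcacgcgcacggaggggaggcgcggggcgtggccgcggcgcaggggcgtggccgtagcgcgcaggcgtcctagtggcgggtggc
Eed: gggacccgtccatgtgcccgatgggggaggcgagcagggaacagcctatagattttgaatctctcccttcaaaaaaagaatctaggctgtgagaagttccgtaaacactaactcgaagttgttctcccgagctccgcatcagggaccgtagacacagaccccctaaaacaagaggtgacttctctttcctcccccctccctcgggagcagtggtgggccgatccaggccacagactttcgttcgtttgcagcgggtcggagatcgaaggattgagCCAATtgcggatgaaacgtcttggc
Bmi1: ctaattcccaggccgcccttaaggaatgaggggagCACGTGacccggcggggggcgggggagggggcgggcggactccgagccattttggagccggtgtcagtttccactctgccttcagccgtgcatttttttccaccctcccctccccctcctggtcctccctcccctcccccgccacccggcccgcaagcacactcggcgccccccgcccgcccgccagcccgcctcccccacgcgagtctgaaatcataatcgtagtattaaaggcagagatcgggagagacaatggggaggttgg

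An E2F word was found in the windows of 2 members, Ezh2 (TTTGGCGC, bases 254 to 261 of the window) and Suz12 (TTTCCCGC, bases 32 to 39), and in 2.27% of all 32851 windows. The E-box stood in the Bmi1 window alone among the members, and in 7.15% of all windows. The CCAAT box stood in 5 members (Ezh2, Eed, Suz12, Jarid2 and Cbx7) and in 37.4% of all windows, and the core TGACGT in 1 member, Ring1, and in 7.51% of all windows. Neither the Ezh1 nor the Rnf2 window held any of these words. A match describes letters only and is no evidence of binding.

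Of the 10 genes, 7 fell in CML 2wk (Ezh1, Ezh2, Suz12, Jarid2, Ring1, Cbx2 and Cbx7), 1 rose (Eed) and 2 did not pass the test (Bmi1 and Rnf2), at an adjusted p under 0.05 in edgeR's quasi-likelihood test over 18438 genes. Over all genes tested, 29.0% were lower and 30.6% higher by the same rule, 59.5% in all, so most genes in these cells differed between the groups. The CTRL and CML 2wk values did not overlap for 6 of the 10 genes, all lower in CML 2wk, against 20.6% of all genes lower without overlap and 17.0% higher (37.6% in all). The median log2 fold change of the 10 genes was -0.36, against 0.07 over all genes tested. Without CML 2wk replicates 2 and 4, the same numbers of members fell and rose (7 and 1), with a median of -0.35, and the largest moves were to -0.93 for Cbx7 and to -0.18 for Rnf2. The pair of replicate 6 libraries, 1 against 1 and so without a test, is part of the same fit and is no further support. In it the 8 called genes had the directions of the fit. Ezh1 was 57.2 CPM in CTRL and 29.5 in CML 2wk, Ezh2 223 and 197, Suz12 267 and 222, and Jarid2 133 and 93.0. Ring1 was 22.4 and 17.9, Cbx2 41.1 and 20.7, Cbx7 22.9 and 10.8, and Eed 73.4 and 111. The genes that did not pass were higher in CML 2wk in this pair, Rnf2 at 80.5 and 82.8 and Bmi1 at 76.4 and 98.4. CML 2wk replicate 6 was the lowest library of its group for Ezh1 and Cbx7. The RNA came from sorted populations, so a lower value can come from fewer cells of a type or from less RNA per cell, and these cannot be told apart.

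Fold changes in these libraries followed the length and the GC content of the transcript across all genes. Over 17803 genes with a known length and GC content, Spearman's rho with the log2 fold change was -0.36 for length and -0.28 for GC (a description across genes, which are not independent). With the genes cut into 5 equal bins, the bin of shortest transcripts had a median log2 fold change of 0.50 and that of the longest -0.30. The medians were 0.37 in the bin of lowest GC and -0.30 in that of highest GC. Among the 10 Polycomb genes the fold change also went with GC (Pearson's r -0.71, Spearman's rho -0.79, 10 genes). Cbx2, Cbx7 and Ring1, at 57.6%, 56.4% and 56.9% GC, fell, while Bmi1 and Rnf2, at 40.2% and 39.5%, did not pass the test. Suz12 and Ezh2, also low in GC at 41.6% and 44.4%, fell nonetheless, and Eed, the member that rose, was at 47.8%. A second fit therefore removed both trends within each library, an alternative that was chosen after seeing the data. In it 6 members fell and 1 rose, against 24.0% of genes lower and 25.7% higher over all genes (49.8% in all), and the median of the members was -0.27 against 0.02 over all genes. Ezh1, Ezh2, Suz12 and Cbx2 fell and Eed rose in both fits; Jarid2, Ring1 and Cbx7 passed only in the first, and Rnf2 and Bmi1 were lower only in the second. Whether the trends come from the libraries or from the cells was not tested.

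**Figure D1:**
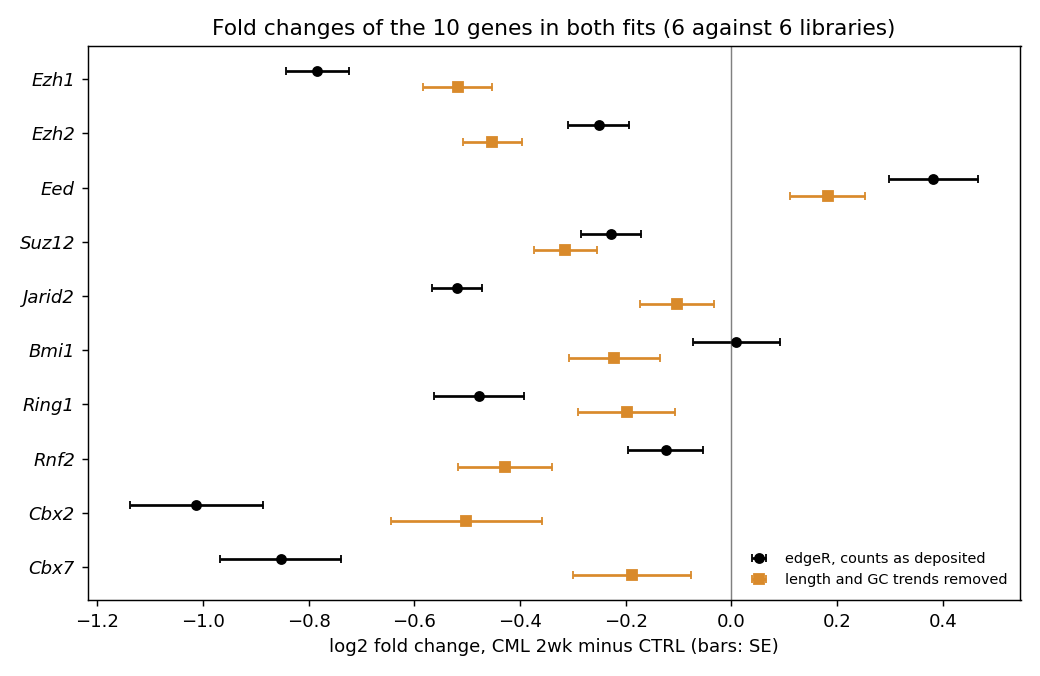
Log2 fold change (x axis, CML 2wk minus CTRL, bars SE) of each of the 10 Polycomb genes on the counts as deposited (black circles) and with the length and GC trends removed (orange squares). Cbx2 moved from -1.01 to -0.50 and Cbx7 from -0.85 to -0.19, while Rnf2 moved from -0.12 to -0.43 and Eed stayed above 0 in both.

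**Figure D2:**
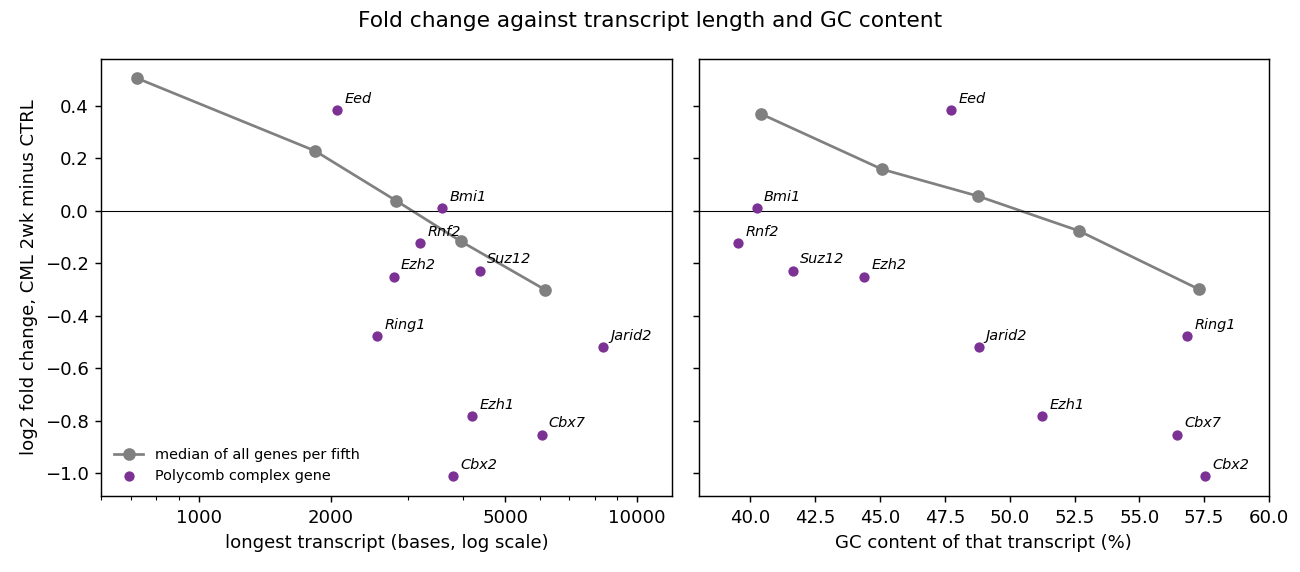
Log2 fold change (y axis) against the length of the longest transcript in bases (left, log scale) and its GC content in percent (right). Grey points joined by lines are medians of all genes in 5 equal bins, falling from 0.50 to -0.30 with length and from 0.37 to -0.30 with GC; purple points are the 10 Polycomb genes, of which Eed alone lies above the line in both panels.

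Among the catalytic subunits of PRC2, Ezh1 fell the most. Ezh1 (ENSMUSG00000006920) encodes the H3K27 methyltransferase that predominates in resting cells; it measured 56.5 CPM in the lowest, 58.8 at the median and 61.3 in the highest CTRL library, and 29.5, 34.8 and 36.9 CPM in CML 2wk. Every CML 2wk library lay below every CTRL library, and replicate 6 was the lowest of the CML 2wk libraries. The mean was 58.9 ± 1.98 CPM (SD, n = 6) in CTRL and 34.2 ± 2.51 in CML 2wk, 1.72-fold lower (log2 fold change -0.78, SE 0.06, adjusted p 1.14e-07, edgeR). With the trends removed the log2 fold change was -0.52 (adjusted p 1.68e-05), and without CML 2wk replicates 2 and 4 it was -0.80.

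Ezh2 (ENSMUSG00000029687), the more active H3K27 methyltransferase and the main form in dividing cells, fell by less than Ezh1. It measured 200.9 CPM in the lowest, 223 at the median and 234 in the highest CTRL library, and 167, 188 and 197 CPM in CML 2wk. The groups did not overlap, although the highest CML 2wk library, replicate 6 at 196.9 CPM, came close to the lowest CTRL library, replicate 2 at 200.9 CPM. The mean went from 221 ± 10.97 to 185 ± 11.4 CPM (SD, n = 6), 1.19-fold lower (log2 fold change -0.25, SE 0.06, adjusted p 0.00175, edgeR). The fall was larger with the trends removed (-0.45, adjusted p 1.24e-05), and it was -0.22 without CML 2wk replicates 2 and 4.

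The ratio of the 2 methyltransferase genes, taken within each library, was higher in CML 2wk than in CTRL on the counts as deposited. Ezh2 CPM divided by Ezh1 CPM was 3.28 to 4.02 in CTRL and 4.90 to 6.66 in CML 2wk, so the groups did not overlap, and the mean log2 ratio rose from 1.90 ± 0.11 to 2.44 ± 0.16 (SD, n = 6). A ratio within a library does not depend on its scaling, but Ezh1 and Ezh2 differ in GC content (51.2% and 44.4%). With the trends removed their log2 fold changes were close (-0.52 and -0.45). The difference between them was 0.53 on the counts as deposited and 0.07 with the trends removed. Per kilobase of exon, Ezh1 made up 19.4% ± 1.22 of the CPM of the pair in CTRL and 14.3% ± 1.28 in CML 2wk.

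The non-catalytic core of PRC2 moved in both directions. Eed (ENSMUSG00000030619) encodes the subunit that reads trimethylated H3K27 and stimulates the enzyme. It measured 71.8 CPM in the lowest, 75.5 at the median and 85.7 in the highest CTRL library, and 82.4, 105 and 111 CPM in CML 2wk. The groups overlapped: CTRL replicate 3 lay above CML 2wk replicates 2 and 5, and the other CML 2wk libraries were at 100.4 CPM or more. Eed was the one member that rose, from 76.3 ± 4.88 to 99.6 ± 13.4 CPM, or 1.30-fold (log2 fold change 0.38, SE 0.08, adjusted p 0.00127, edgeR). The rise was 0.18 with the trends removed, near the threshold (adjusted p 0.0431), and 0.39 without CML 2wk replicates 2 and 4.

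Suz12 (ENSMUSG00000017548) encodes the scaffold on which PRC2 is assembled. It measured 231 CPM in the lowest, 262 at the median and 269 in the highest CTRL library, and 204, 224 and 232 CPM in CML 2wk. A single pair of libraries made the groups overlap, CTRL replicate 2 at 230.7 CPM and CML 2wk replicate 5 at 232.3 CPM. Suz12 fell 1.17-fold (from 258 ± 14.1 to 220.3 ± 11.2 CPM; log2 fold change -0.23, SE 0.06, adjusted p 0.00305, edgeR), and by 0.31 on the log2 scale with the trends removed (adjusted p 0.000528); without CML 2wk replicates 2 and 4 the value was -0.22.

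Jarid2 (ENSMUSG00000038518), an accessory subunit that helps bring PRC2 to chromatin, had the tightest replicates of the 10 genes in CML 2wk (coefficient of variation 3.88%). It measured 121 CPM in the lowest, 124 at the median and 133 in the highest CTRL library, and 82.9, 86.6 and 93.0 CPM in CML 2wk. All CML 2wk libraries were far below all CTRL libraries, and replicate 6 was the highest in each group. The mean fell 1.43-fold (log2 fold change -0.52, SE 0.05, adjusted p 5.21e-07, edgeR). Jarid2 has the longest transcript of the 10 genes, 8353 bases, and with the trends removed its log2 fold change was -0.10 (adjusted p 0.243), which does not pass. Without CML 2wk replicates 2 and 4 it was -0.51.

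**Figure D3:**
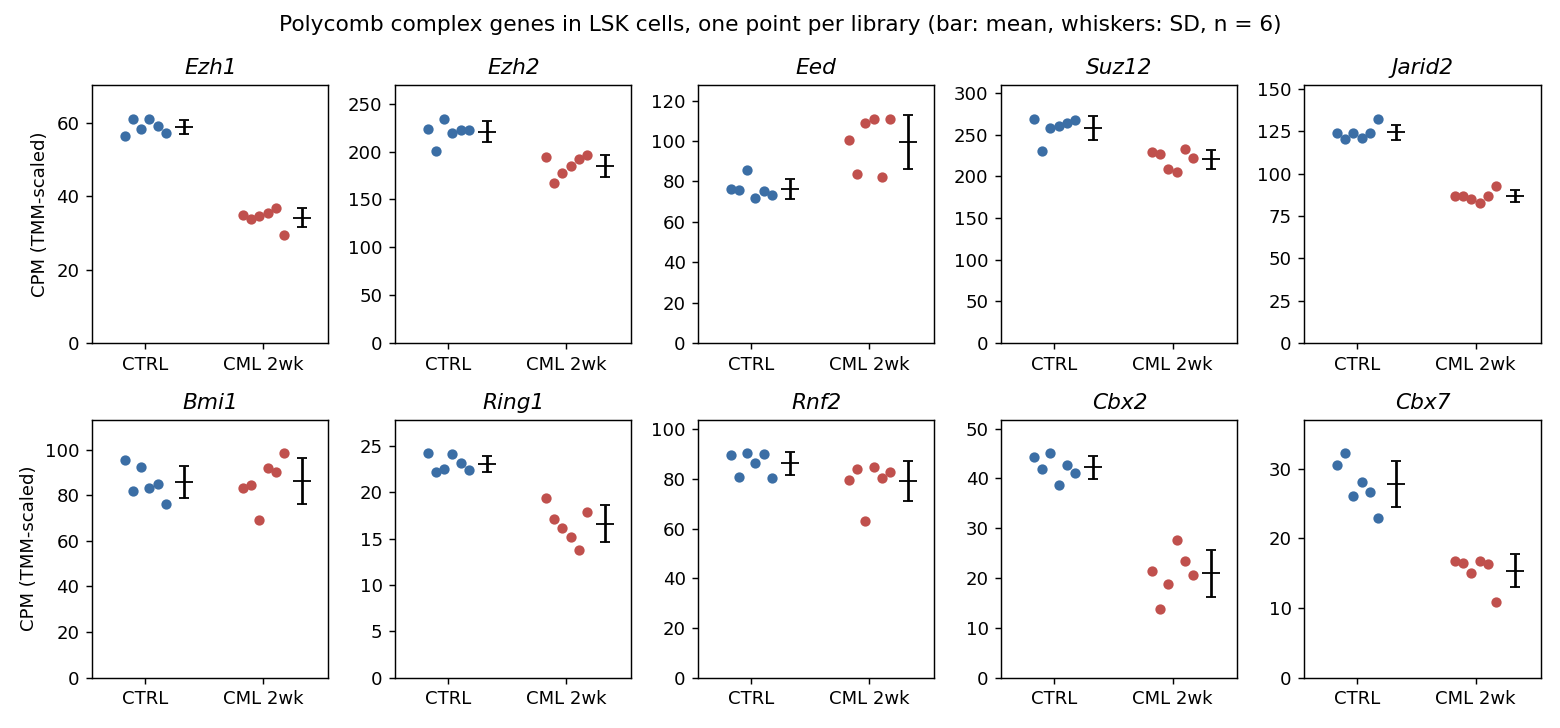
CPM (y axis, TMM-scaled, from 0) of each of the 10 Polycomb genes, 1 panel a gene and 1 point a library, with the mean and SD (n = 6) beside each group; CTRL is blue and CML 2wk red. Points of the groups are separate for Ezh1, Ezh2, Jarid2, Ring1, Cbx2 and Cbx7 and overlap for Eed, Suz12, Bmi1 and Rnf2.

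In PRC1, the chromobox genes fell the most. Cbx2 and Cbx7 encode alternative subunits whose chromodomain binds methylated H3K27 and ties canonical PRC1 to the PRC2 mark. Cbx2 (ENSMUSG00000025577) measured 38.6 CPM in the lowest, 42.3 at the median and 45.0 in the highest CTRL library, and 13.7, 21.0 and 27.7 CPM in CML 2wk. The groups were well apart, with the lowest value in CML 2wk replicate 2 and the highest of that group in replicate 4, the libraries with the high stromal sums. Its mean was 42.3 ± 2.32 CPM in CTRL and 21.0 ± 4.67 in CML 2wk (SD, n = 6), 2.02-fold lower (log2 fold change -1.01, SE 0.13, adjusted p 8.14e-06, edgeR). It was -1.01 as well without these 2 libraries and -0.50 with the trends removed (adjusted p 0.00915).

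Cbx7 (ENSMUSG00000053411), the chromobox gene known to favour self-renewal of haematopoietic stem cells, measured 22.9 CPM in the lowest, 27.4 at the median and 32.2 in the highest CTRL library. In CML 2wk it measured 10.8, 16.4 and 16.8 CPM, and no library reached the CTRL range. The mean fell 1.81-fold (from 27.7 ± 3.30 to 15.4 ± 2.32 CPM; log2 fold change -0.85, SE 0.11, adjusted p 1.72e-05, edgeR). This was the call that moved most with the trends removed, to -0.19 (adjusted p 0.174), and Cbx7 is both long (6057 bases) and GC-rich. Cbx7 shares 1.54% of its exon length with Apobec3 on the opposite strand, and Apobec3 had 90850 counts in all against 7017 for Cbx7. Other members overlap opposite-strand genes too. Rnf2 shares 3.83% with Trmt1l (15470 counts against 25611) and Eed 6.82% with E230029C05Rik (498 against 25925). Ezh2 and Suz12 share 2.61% and 3.60% with noncoding genes. The strand setting of the counting is not given in the sources used here, so some reads may be assigned to the wrong gene. The ratio of Cbx2 to Cbx7 was 1.30 to 1.79 in CTRL and 0.835 to 1.91 in CML 2wk, and the groups overlapped.

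The RING subunits carry the ubiquitin ligase activity of PRC1. Ring1 (ENSMUSG00000024325) measured 22.2 CPM in the lowest, 22.9 at the median and 24.2 in the highest CTRL library, and 13.8, 16.7 and 19.4 CPM in CML 2wk. No value was shared between the groups, and the spread was larger in CML 2wk (coefficient of variation 12.0%, against 3.78%). Ring1 fell 1.39-fold (from 23.1 ± 0.872 to 16.6 ± 2.00 CPM; log2 fold change -0.48, SE 0.09, adjusted p 0.000231, edgeR), and its value with the trends removed was -0.20 (adjusted p 0.0885). Without CML 2wk replicates 2 and 4 it was -0.47.

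Rnf2 (ENSMUSG00000026484), which encodes the ligase also called RING1B, measured 80.5 CPM in the lowest, 87.8 at the median and 90.2 in the highest CTRL library, and 63.0, 81.5 and 84.9 CPM in CML 2wk. The ranges overlapped in part, and CML 2wk replicate 3 lay below all others. The log2 fold change was -0.12 (95% interval -0.28 to 0.03, adjusted p 0.147, edgeR), and this p does not show that the level was the same in both groups. With the trends removed it was -0.43 (adjusted p 0.00107). The ratio of Rnf2 to Ring1 was 3.57 to 3.99 in CTRL and 3.88 to 5.78 in CML 2wk, with 1 CML 2wk library, replicate 3, inside the CTRL range. The difference between the log2 fold changes of the pair was 0.35, and it turned to -0.23 with the trends removed.

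Bmi1 (ENSMUSG00000026739), the PCGF subunit that pairs with the RING proteins in canonical PRC1, had no stable direction. It measured 76.4 CPM in the lowest, 84.0 at the median and 95.5 in the highest CTRL library, and 69.0, 87.4 and 98.4 CPM in CML 2wk. The CML 2wk libraries lay on both sides of the CTRL range. The means were 85.7 ± 7.09 and 86.3 ± 10.04 CPM (SD, n = 6), with a log2 fold change of 0.01 (95% interval -0.17 to 0.18, adjusted p 0.929, edgeR). The sign turned in 10 of 20 alternative settings, and with the trends removed the value was -0.22 (adjusted p 0.0457). Without CML 2wk replicates 2 and 4 it was -0.02.

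Levels of different genes were compared per kilobase of exon, on lengths from an annotation that may not be the one used for the counting. In CTRL the order was Suz12 at 52.2 ± 2.85 CPM per kilobase (SD, n = 6), Ezh2 at 33.0 ± 1.64, Bmi1 at 21.6 ± 1.78, Rnf2 at 20.9 ± 1.11, Eed at 19.9 ± 1.27, Jarid2 at 12.8 ± 0.444, Cbx2 at 9.93 ± 0.544, Ezh1 at 7.92 ± 0.266, Ring1 at 7.12 ± 0.269 and Cbx7 at 4.28 ± 0.509. Bmi1, Rnf2 and Eed lay within their spread of each other. In CML 2wk the ends of the order were the same, with Suz12 at 44.5 ± 2.27 and Cbx7 at 2.37 ± 0.358 CPM per kilobase. Eed then stood at 26.0 ± 3.50, within its spread of Ezh2 at 27.7 ± 1.71, and Cbx2 at 4.92 ± 1.10 stood within its spread of Ring1 at 5.12 ± 0.616 and Ezh1 at 4.60 ± 0.338. The summed CPM of the 10 genes was 948 to 1036 in CTRL and 798 to 882 in CML 2wk.

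**Figure D4:**
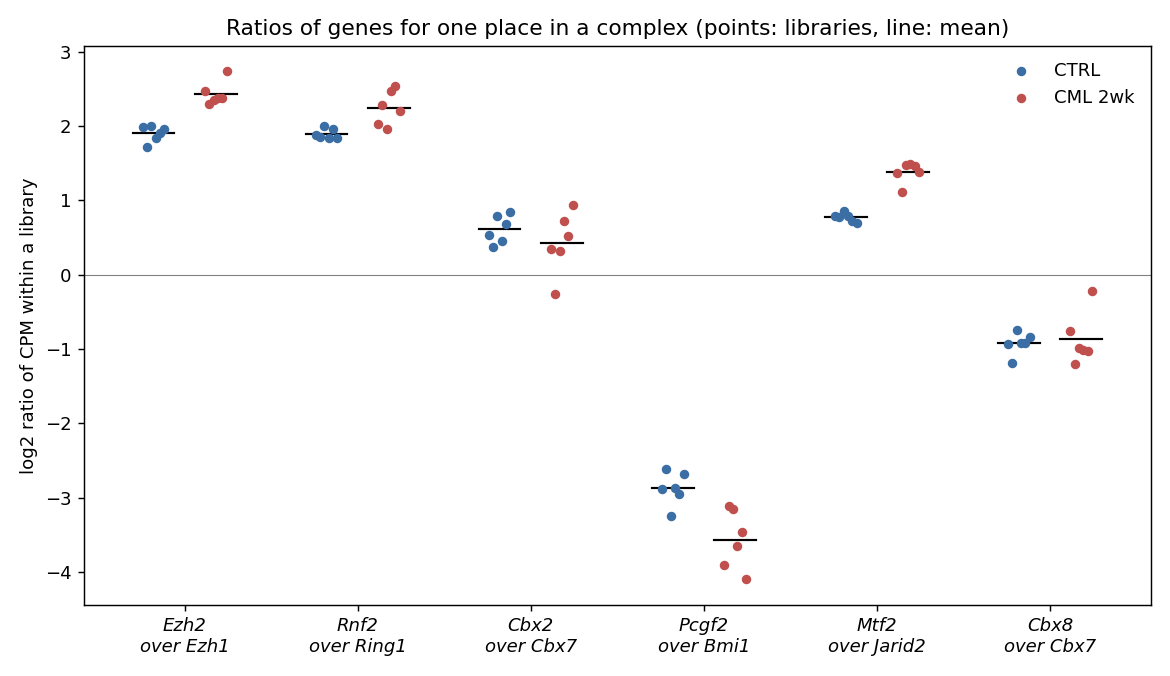
Log2 ratio of CPM within a library (y axis) for 6 pairs of genes that serve one place in a complex, 1 point a library, with the group mean as a line; CTRL is blue and CML 2wk red. The groups are separate for Ezh2 over Ezh1 and Mtf2 over Jarid2 and overlap for the other 4 pairs.

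Jarid2 and Mtf2 belong to different forms of PRC2, since Mtf2 is one of the Polycomb-like proteins that bring PRC2 to unmethylated CpG islands. Mtf2 itself did not pass the test (log2 fold change 0.10, adjusted p 0.212, edgeR). Without CML 2wk replicates 2 and 4 it was higher, just under the threshold (0.14, adjusted p 0.0487, edgeR). The ratio of Mtf2 to Jarid2 was 1.62 to 1.80 in CTRL and 2.17 to 2.81 in CML 2wk, without overlap, and the mean log2 ratio rose by 0.61. With the trends removed Mtf2 was at -0.12 and Jarid2 at -0.10, so that the difference between them was -0.01. Pcgf2, which can take the place of Bmi1 in canonical PRC1, measured 11.7 CPM in CTRL and 7.33 in CML 2wk on average and fell (-0.67, adjusted p 0.00118, edgeR). The log2 ratio of Pcgf2 to Bmi1 was lower by a mean of 0.689 in CML 2wk, but the groups overlapped (0.105 to 0.163 against 0.0585 to 0.116 as a plain ratio). The log2 ratio of Cbx8 to Cbx7 differed by 0.05, with overlap. With the trends removed, the difference between the log2 fold changes of each pair was -0.31 for Pcgf2 over Bmi1 and -0.25 for Cbx8 over Cbx7.

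The rest of the Polycomb machinery was read from a list of 47 further genes, of which 45 could be tested: 35 fell and 4 rose. These counts have the same background of 29.0% and 30.6%. With the length and GC trends removed 20 fell and 6 rose, and without CML 2wk replicates 2 and 4 the numbers were 34 and 4. All counts with the trends removed, here and below, have a background of 24.0% lower and 25.7% higher. All 8 further genes of canonical PRC1 fell, as did 11 of the 12 genes of variant PRC1, the forms that lack a chromobox protein, and 8 of the 10 tested genes of the PR-DUB complex, which removes the ubiquitin that PRC1 adds. Both H3K27 demethylase genes, Kdm6a and Kdm6b, fell too. With the trends removed, 6 of 8 canonical PRC1 genes fell and 1 rose, 5 of 12 variant PRC1 genes fell and 1 rose, 4 of 10 PR-DUB genes fell and 1 rose, and 1 of the 2 demethylase genes fell. Without CML 2wk replicates 2 and 4, 10 of the 12 variant PRC1 genes fell.

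The largest falls among them were of Scml2, a Sex comb on midleg-like protein of PRC1, from 10.9 to 3.19 CPM (log2 fold change -1.76), Mbd6 of PR-DUB, from 111 to 41.5 CPM (-1.42), Phf1, a Polycomb-like partner of PRC2, from 10.8 to 4.15 CPM (-1.37), Dcaf7, a WD-repeat protein of variant PRC1, from 317 to 149 CPM (-1.09), and Phc1, a Polyhomeotic protein that links PRC1 complexes to each other, from 57.0 to 26.9 CPM (-1.08). None of these 5 genes overlapped between the groups. The same held, lower in CML 2wk, for 29 of the 45 tested genes and for 20.6% of all genes. As the 5 were picked for the largest falls in these data, their separation is no further support. All 5 stayed lower with the trends removed, from -1.81 for Scml2 to -0.71 for Dcaf7. The genes that rose were Rbbp4, a histone-binding protein shared by PRC2 and other complexes, from 383 to 628 CPM (0.71), Yaf2 of variant PRC1, from 27.1 to 40.4 CPM (0.57), Pcgf6, from 29.9 to 38.1 CPM (0.35), and Rbbp7, from 325 to 371 CPM (0.19). The call of Rbbp7 was the weakest of these (adjusted p 0.0432, edgeR), it passed in 8 of 20 alternative settings, and with the trends removed its direction turned (-0.09). Rbbp7 did not pass without CML 2wk replicates 2 and 4 (0.20, adjusted p 0.061, edgeR).

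**Figure D5:**
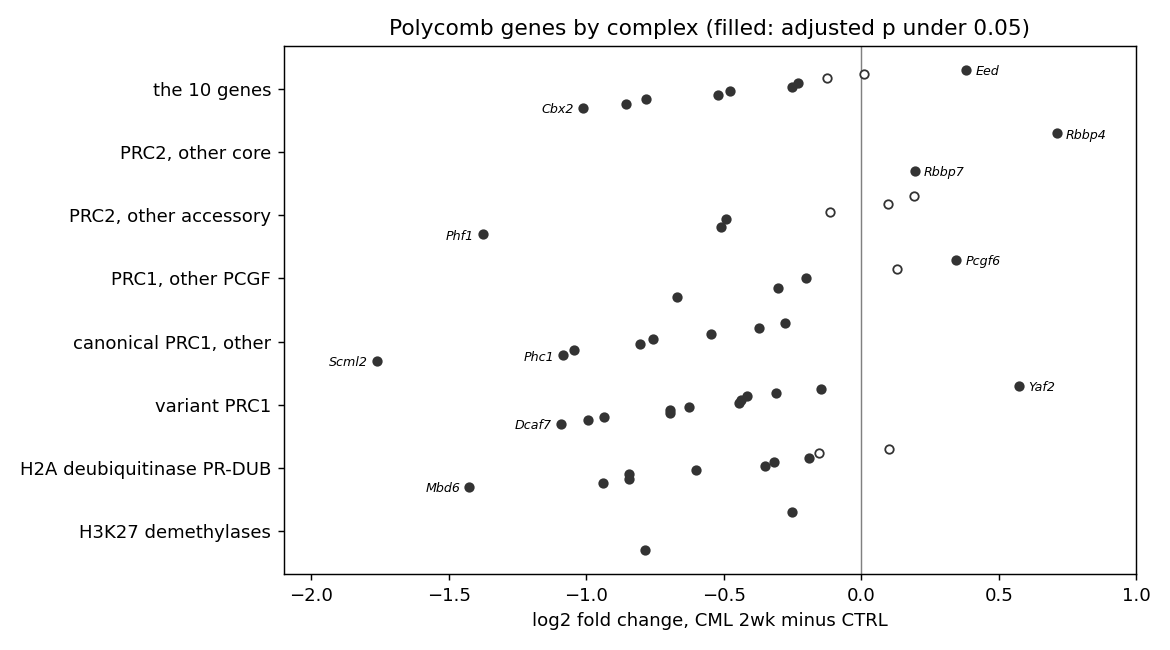
Log2 fold change (x axis, CML 2wk minus CTRL) of the 10 Polycomb genes and of 45 further Polycomb genes by complex (rows), 1 point a gene, filled where the adjusted p was under 0.05. All 8 further canonical PRC1 genes lie below 0, from Scml2 at -1.76, while Rbbp4 at 0.71 lies highest.

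Genes that Polycomb complexes are known to silence were mostly at or near 0 in both groups. Of 24 developmental regulators, 12 had no count in any library (Sox1, Pax3, Nkx2-5, Olig2, Tbx5, Hand1, Neurog1, Neurod1, Sim1, Evx1, En1 and Cdx2), which allows up to 3 counts, or 0.186 CPM in the shallowest library; such limits cover counting error only. The summed CPM of the 24 was 0.524 to 0.792 in CTRL and 2.40 to 8.64 in CML 2wk, without overlap and highest in replicate 2. Only 1 of the 24 could be tested. It rose, with and without CML 2wk replicates 2 and 4, as did 30.6% of all genes tested with all libraries. Of 6 targets known in blood cells, Igf2bp3, an RNA-binding protein of fetal haematopoiesis, rose from 3.65 to 6.89 CPM (log2 fold change 0.91, adjusted p 0.000644, edgeR), with overlap. Hmga2 did not pass and ranged from 12.7 to 114 CPM in CML 2wk, the highest value in replicate 2. Without CML 2wk replicates 2 and 4, however, Hmga2 was lower (log2 fold change -0.67, adjusted p 0.003, edgeR), as was Igf2bp2, another RNA-binding protein of this list (-1.12, adjusted p 0.000338), which did not pass with all libraries (0.36, adjusted p 0.621). Igf2bp3 stayed higher (1.07).

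Other lists moved between the same groups, and their part in the results for the Polycomb genes was not tested. Over all genes tested 29.0% fell and 30.6% rose, so a count near these shares does not set a list apart. Of 10 LSK marker genes 8 fell and 1 rose, and their summed CPM was 2468 to 2847 in CTRL and 1418 to 1846 in CML 2wk. Of 8 mast cell and basophil genes 6 rose and 1 fell (summed CPM 307 to 424 and 495 to 2643), and of 9 tested monocyte and macrophage genes 4 rose (220.5 to 294 and 438 to 1093). Of 8 erythroid genes 7 fell (103 to 191 and 17.5 to 48.3), as did all 6 tested megakaryocyte genes (289 to 336 and 96.2 to 259), while Gp6 of the same list had no count in CML 2wk. Of the other lists, 2 of 8 B cell genes, 3 of 7 tested T and NK cell genes and 4 of 8 neutrophil genes fell, 2 T and NK cell genes and 1 neutrophil gene rose, and 5 of 13 tested stromal genes rose, while no stromal gene fell. Without CML 2wk replicates 2 and 4 the numbers that fell were 6 B cell, 2 neutrophil, 3 monocyte and macrophage and 7 stromal genes, and 1 stromal gene and 1 T and NK cell gene rose. Of 18 proliferation genes 7 rose and 10 fell, with summed CPM of 5647 to 6763 in CTRL and 4229 to 5309 in CML 2wk. Mitochondrial genes took 0.816% to 1.29% of counts in CTRL and 2.26% to 2.97% in CML 2wk.

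Within the groups the 10 genes did not vary as one block. Correlations are Pearson's r of log2 CPM over 12 libraries after each group's mean was taken off, given as a description without a test, and all genes of a library share its depth and cell mix. Bmi1 went with Rnf2 (0.86) and Ezh1 with Cbx7 (0.78), whereas Jarid2 ran against Cbx7 (-0.84) and against Ezh1 (-0.76). Ezh1 and Ezh2 were not closely tied (-0.32). In 9 of the 10 genes the coefficient of variation was larger in CML 2wk than in CTRL; Suz12 was the exception, at 5.10% and 5.46%. Among 10320 genes, those most like Ezh2 were Ncapg2 (0.95), Cdca7 (0.93), Wdr18 (0.93), H2afy (0.92) and Plk4 (0.92), and those most like Ezh1 were Rbpms (0.91), Fcho2 (0.90), Map4k2 (0.89), Cep131 (0.88) and Hoxa3 (0.88). Rab3ip (0.95), H2-DMa (0.92), Tspyl1 (0.92), Cnp (0.90) and Lyl1 (0.88) were closest to Bmi1, and Faah (0.87), BC029722 (0.86), Mllt6 (0.84), Zfp831 (0.84) and Tle2 (0.82) to Cbx7.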

How the data were processed

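Bulk RNA-seq counts of 12 libraries (6 CTRL, 6 CML 2wk; grouped by the sample titles) were used as deposited: whole-number counts per Ensembl gene, which the authors left unnormalised. The submitters' processing notes name FastQC 0.11.9, fastp 0.23.2, STAR 2.7.10a, featureCounts 2.0.1, DESeq2 1.36.0 and the build mm39 (GRCm39), whereas the study's methods name Trim Galore!, HISAT2 and hg38 for bulk RNA-seq; the annotation release, strand setting and treatment of multimapped reads are not given in the sources used here. Symbols, lengths and GC content came from GENCODE vM21 (GRCm38), with 52073 of 56748 identifiers matched by Ensembl identifier, and no gene coordinates are given beyond the RefSeq promoter windows. Of the genes tested, 96.6% had a length and GC value.

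The groups were compared in R 4.3.3 with edgeR 4.0.16 (TMM factors, filterByExpr, quasi-likelihood test, Benjamini-Hochberg adjustment over 18438 genes, threshold 0.05), with all 12 libraries in one fit and no covariate. CPM values are TMM-scaled. The scripts were tested on simulated data. Alternatives were RLE and upper-quartile factors, no filter, DESeq2 1.42.0, a replicate block, a term for replicate 6, replicates 1 to 5 only, CML 2wk replicates 2 and 4 left out and each library left out; the fit with length and GC trends removed (splines fitted in each library) was added after seeing the data. Replicate numbers come from the titles, and the study's methods describe cohorts of 6 recipient mice, but no label ties a library to a mouse; p-values measure the spread between these samples. No 2 libraries agreed within sampling noise (lowest chi-square per degree of freedom 3.78).

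The genes named are the 10 members, the further Polycomb genes with the largest change each way (5 each), the Polycomb targets likewise (3 each), and for Ezh1, Ezh2, Bmi1 and Cbx7 the 5 genes most correlated with each; those that share a place with a member, the sorting markers and genes of the marker lists appear with their list. Members and lists were chosen with earlier results of these data known. 1 of the genes this rule names is not reported here. Hmga2, Igf2bp2 and the shares of each gene within its family were chosen after their values were seen.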

Additional observations from a re-analysis of the deposited data

Results flagged for a closer look

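In 40 groups of 6 values (20 genes in each of the 2 groups), the highest or lowest library stood far from the others by Dixon's test 7 times, and chance gives about 2. For the PRC2 genes, these were Eed in CTRL 3 at 85.7 CPM (next value 76.1), Suz12 in CTRL 2 at 230.7 CPM (next 257), and Jarid2 in CTRL 6 at 132.6 CPM (next 124.3) and in CML 2wk 6 at 93.0 CPM (next 86.7). The first and second are the libraries through which Eed and Suz12 overlapped between the groups. For the PRC1 genes, Rnf2 was low in CML 2wk 3 at 63.0 CPM (next 79.5) and Cbx7 low in CML 2wk 6 at 10.8 CPM (next 15.0). Among the other named genes, Scml2 was high in CML 2wk 5 at 4.95 CPM (next 3.12). CML 2wk 6 accounts for 2 of the 7 values, and CTRL 6, whose library number falls in the same run, for 1.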

How the results depend on the processing

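The 8 calls among the 10 Polycomb genes kept their direction and passed in all 20 alternative settings, and Rnf2 passed in none of them. Bmi1, which did not pass at 0.01, turned sign with no filter (-0.0611), in replicates 1 to 5 only (-0.0553), without CML 2wk replicates 2 and 4 (-0.0167) and in DESeq2 (-0.0125), and leaving out 1 library at a time gave -0.0408 to 0.0649. With the length and GC trends removed, Bmi1 was -0.22 and Rbbp7 -0.0944, the latter turned from 0.19, and 20 of the further Polycomb genes fell, not 35. The log2 ratio of Cbx8 to Cbx7 was -0.0740 to 0.122 when 1 library was left out, below 0 only without CML 2wk replicate 6. No scaling or filter moved the median log2 fold change of all genes by more than 0.0743.

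The same replicate numbers do not pair the libraries: same-numbered CTRL and CML 2wk libraries had correlations of deviations from -0.13 to 0.07, and 1 of 6 CTRL libraries correlated best with its own number. With a replicate block, 7 of the 10 genes fell and 1 rose as before, 33 further Polycomb genes fell and 3 rose, and 4786 genes rose and 5189 fell over all genes. With a term for replicate 6 the calls among the 10 genes were the same. Most of the Polycomb targets were too low to test.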

Other observations

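Shares of CPM per kilobase within families that fill one place in a complex were computed after the values were seen, and are given as values only. Among the Polyhomeotic genes, Phc1 went from 38.8% ± 1.54 (SD, n = 6) in CTRL to 27.8% ± 3.47 in CML 2wk and Phc2 from 36.9% ± 1.49 to 46.5% ± 2.16, both without overlap. Bmi1 held 37.7% ± 2.00 of the PCGF genes in CTRL and 39.8% ± 2.75 in CML 2wk, with overlap, whereas Pcgf6 went from 10.4% ± 0.753 to 14.0% ± 1.34 and Pcgf5 from 25.6% ± 1.33 to 21.8% ± 1.362, without overlap. Cdkn2a and Cdkn2b, targets of Polycomb silencing that were too low to test, measured at most 0.187 and 0.133 CPM in CTRL and at most 3.85 and 4.18 CPM in CML 2wk. Each of these maxima is the value of a single library and does not describe its group.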
